A study of Homo sapiens with 112 samples.

Results

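The 10 genes described here are EIF2AK3, ATF4, DDIT3, TRIB3, CHAC1, ATF3, DDIT4, ASNS, PSAT1 and PHGDH, chosen by symbol as genes of the PERK-ATF4 stress response and of serine synthesis. The choice was made with earlier results of these data known. All 10 were found among the 58684 genes of the RNA-seq count table, and all 10 passed the minimum of 10 reads in at least 4 libraries in both cell lines. They were measured in 112 libraries of the human prostate cancer cell lines VCaP (55 libraries) and LAPC4 (57 libraries), which had spent 2 days in hormone-depleted medium (10% charcoal-stripped serum) before treatment for 8 or 22 h. The treatments were DMSO (vehicle), 1 nM R1881 (a synthetic androgen), or 1 nM R1881 together with 500 nM or 2 µM darolutamide, an antagonist of the androgen receptor. In VCaP cells at 8 h there were 10 libraries with DMSO, 10 with R1881, 4 with the low darolutamide dose and 5 with the high one, and at 22 h there were 8, 9, 4 and 5. In LAPC4 cells they held 10, 10, 5 and 5 at 8 h, and 7, 10, 5 and 5 at 22 h. Every darolutamide group also received R1881, each model is a single cell line, and the labels do not tie the libraries of a group to separate cultures, so p-values measure the spread between these libraries, which may be technical. The study's methods describe biological replicates, fewer per condition than the control groups hold here. The darolutamide groups hold replicates 1 to 5 alone, whereas the DMSO and R1881 groups also hold replicates numbered 6 and above.

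PERK, the product of EIF2AK3, is a kinase of the endoplasmic reticulum membrane that is activated by unfolded proteins and phosphorylates the translation factor eIF2. General translation then slows, while translation of the transcription factor ATF4 increases. ATF4 acts on genes of amino acid synthesis and transport, among them the serine synthesis enzymes PHGDH and PSAT1 and the asparagine synthetase ASNS, and on stress effectors such as DDIT3 (CHOP), TRIB3, CHAC1, ATF3 and DDIT4. ATF4 protein and eIF2 phosphorylation were not measured here, because the libraries hold messenger RNA only.

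Levels are given as CPM, the read counts of a gene scaled to the TMM-corrected total of its library, and between genes as CPM per kilobase of the MANE Select transcript. The scaling was made within each cell line, so CPM values are not comparable between the lines. The total of gene counts ran from 12188455 to 25201678 reads over the libraries. A bulk level does not tell apart a change in every cell from a change in the share of cells that carry the transcript. ERG followed the cell line labels. This gene, which VCaP cells express from a fusion with TMPRSS2, had 1578 to 21554 reads in each VCaP library and 0 to 1 in each LAPC4 library. The summed level of 7 markers of blood, endothelial and stromal cells lay between 0.313 and 2.06 CPM over all libraries, with COL1A1 at 0.208 to 1.83 CPM, and CD3E and COL1A2 had 0 reads in every VCaP library.

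In GENCODE 44 on GRCh38, EIF2AK3 lies on chromosome 2 from 88556741 to 88691518, ATF4 on chromosome 22 from 39519695 to 39522683 and DDIT3 on chromosome 12 from 57516588 to 57521737. TRIB3 lies on chromosome 20 from 362835 to 397559, CHAC1 on chromosome 15 from 40952962 to 40956512 and ATF3 on chromosome 1 from 212565334 to 212620777. DDIT4 lies on chromosome 10 from 72273919 to 72276036, ASNS on chromosome 7 from 97851677 to 97872542, PSAT1 on chromosome 9 from 78297125 to 78330093 and PHGDH on chromosome 1 from 119648411 to 119744218. The annotated spans of DDIT3, EIF2AK3 and ASNS overlap other genes, for DDIT3 MARS1, MBD6, MIR616 and a protein-coding gene without a symbol. Because the strand setting of the counting is not given in the sources used here, reads in these overlaps are of uncertain origin. ATF4 has 4 pseudogenes in the table, ATF4P1 to ATF4P4, whose summed reads were 50% to 58.5% of the ATF4 reads of the same library. ATF4P1 and ATF4P2 carried identical counts in 112 of 112 libraries. The pseudogenes of ASNS held 2.66% to 7.34% and those of PSAT1 2.06% to 5.91% of the gene's reads.

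In VCaP cells with DMSO for 22 h, the levels per kilobase ran from ATF4 at 196 ± 9.96 CPM per kilobase (SD, n = 8) over PHGDH at 51 ± 4.56, PSAT1 at 33.4 ± 1.63 and ASNS at 27.3 ± 1.58 down to CHAC1 at 0.182 ± 0.118. DDIT3 and DDIT4, both at 18.7, overlapped in range, as did ATF3 (0.206 ± 0.0532) and CHAC1, while every other gene was above the next in each pair of library values compared. LAPC4 cells kept the order of the highest 3, with ATF4 at 349 ± 13.8, PHGDH at 119 ± 9.9 and PSAT1 at 53 ± 1.65 CPM per kilobase (SD, n = 7). The next 6 genes of LAPC4 cells, from DDIT4 at 26.3 ± 2.5 to DDIT3 at 19.3 ± 1.49, each overlapped their neighbour, and CHAC1 was again last at 1.31 ± 0.348.

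Levels of the lines were compared in a fit of both lines with a joint scaling. All 10 genes were called in DMSO at 22 h, 8 lower and 2 higher in VCaP cells, where 85.5% of the 16578 genes tested in both lines were called. Here and in all comparisons, called means an adjusted p under 0.05 in edgeR's quasi-likelihood F test, with p adjusted over all genes tested by the method of Benjamini and Hochberg. ATF3, an immediate stress-response transcription factor, was 83.2-fold lower in VCaP cells (log2 difference -6.38, SE 0.0973). It had 4 to 10 reads in the VCaP and 789 to 943 reads in the LAPC4 DMSO libraries of 22 h. CHAC1, which degrades glutathione, was 6.14-fold lower (log2 difference -2.62, SE 0.279). EIF2AK3 was 2.2-fold, PHGDH 1.9-fold, TRIB3 1.66-fold, ATF4 1.44-fold, PSAT1 1.29-fold and DDIT4 1.14-fold lower. ASNS was 1.46-fold higher. DDIT3 had a log2 difference of 0.26 in the joint scaling but of -0.01 (adjusted p = 0.86 by edgeR) with total counts alone, so its direction rests on the scaling.

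RefSeq promoter windows on GRCh38.p14, which hold 250 bases before and 50 after a transcript start, were searched for the C/EBP-ATF composite element that ATF4 is known to bind. Whether this element bears on the direction of the changes below was not tested. The letters searched were TGATGNAA and the full cAMP-response element TGACGTCA, on both strands. The first was found in 3.62% and the second in 1.85% of 35116 windows. All 10 genes had a window, 16 windows in all, and ASNS, CHAC1 and ATF3 held the first motif once each. The second was found in no window of the 10 genes. The 30-base stretches are printed 5′ to 3′ on the gene's strand with the motif in capitals, and the CHAC1 match reads the motif on the opposite strand. They lie at chr7:97872458-97872487 on the minus strand for ASNS, with the motif 68 bases before the start, at chr15:40953251-40953280 on the plus strand for CHAC1, 209 bases before the start, and at chr1:212565205-212565234 on the plus strand for ATF3, 191 bases before the start.
ASNS: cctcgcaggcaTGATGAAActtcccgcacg
CHAC1: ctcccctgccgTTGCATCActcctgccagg
ATF3: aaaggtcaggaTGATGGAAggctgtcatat
The PSAT1, PHGDH, TRIB3, DDIT3, DDIT4, EIF2AK3 and ATF4 windows did not hold these letters, which says nothing of sites elsewhere in those genes.

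In VCaP cells, 8 h of R1881 raised the stress genes and lowered both serine synthesis enzymes. EIF2AK3, ATF4, DDIT3, CHAC1, ATF3, TRIB3 and DDIT4 were higher than with DMSO, PSAT1 and PHGDH were lower, and ASNS was not called. The rises of TRIB3 and DDIT4 were small, and their calls were lost in some settings given below. These 7 higher and 2 lower genes stand against 32.8% of the 19266 tested genes called higher, 34.1% called lower and 66.9% called in either direction. The median log2 fold change was 0.44 over the 10 genes and -0.03 over all genes tested. Because the 10 genes were chosen with earlier results of these data known, this contrast is no independent evidence. With libraries scaled by total counts alone, the calls over all genes went from 6327 higher and 6564 lower to 4658 higher and 9058 lower.

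EIF2AK3 lay at 28.1 to 33.6 CPM (median 31.5) with DMSO and at 65.8 to 81.2 CPM (median 76.8) with R1881 for 8 h. The ranges did not overlap, and the gene was 2.42-fold higher (log2 fold change 1.27, SE 0.0392, adjusted p = 2.85e-35 by edgeR). ATF4 rose from 242 to 267 CPM (median 251) with DMSO to 396 to 421 CPM (median 407) with R1881, which was 1.61-fold (log2 fold change 0.69, SE 0.0234, adjusted p = 3.4e-33 by edgeR). With the reads of its pseudogenes added, the ATF4 log2 fold change was also 0.69. DDIT3, the proapoptotic factor CHOP, was 2.19-fold higher, at 22.6 to 29.7 CPM against 10.2 to 14.2 with DMSO. TRIB3, a pseudokinase that binds ATF4 and CHOP, and DDIT4, an inhibitor of mTORC1, were 1.15-fold and 1.12-fold higher with overlapping ranges. Neither was called when only control replicates 6 and above were used (log2 fold changes 0.05 and 0.08, adjusted p = 0.555 and 0.406 by edgeR) or with total counts alone (0.06 and 0.02, adjusted p = 0.256 and 0.792 by edgeR).

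CHAC1 and ATF3 had the largest fold changes of the 10 genes at 8 h and the fewest reads. CHAC1 had 2 to 11 reads per library with DMSO and 15 to 51 with R1881, and was 4.7-fold higher (log2 fold change 2.23, SE 0.227, adjusted p = 6.45e-13 by edgeR). ATF3 had 3 to 10 reads with DMSO and 14 to 23 with R1881, and was 2.63-fold higher (log2 fold change 1.40, SE 0.187, adjusted p = 2.63e-09 by edgeR). The CPM ranges were apart for CHAC1 and overlapped for ATF3.

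PSAT1, the phosphoserine aminotransferase of the second step of serine synthesis, fell from 78.9 to 95.5 CPM (median 89.9) with DMSO to 47 to 68.9 CPM (median 58.7) with R1881 for 8 h. PHGDH, the dehydrogenase of the first and committed step, fell from 77.4 to 102 CPM (median 94.4) to 55.6 to 64.5 CPM (median 58.9). Neither pair of ranges overlapped, and both genes were 1.53-fold lower (log2 fold changes -0.61 and -0.62, adjusted p = 4.16e-19 and 1.37e-17 by edgeR). ASNS, at 71.8 to 83 CPM with DMSO and 69.8 to 88.6 with R1881, had a log2 fold change of 0.01 (95% interval -0.07 to 0.09). Scaling by total counts alone lowered the median of all genes to -0.18, and ASNS was then called lower (log2 fold change -0.13, adjusted p = 0.00156 by edgeR).

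**Figure D1:**
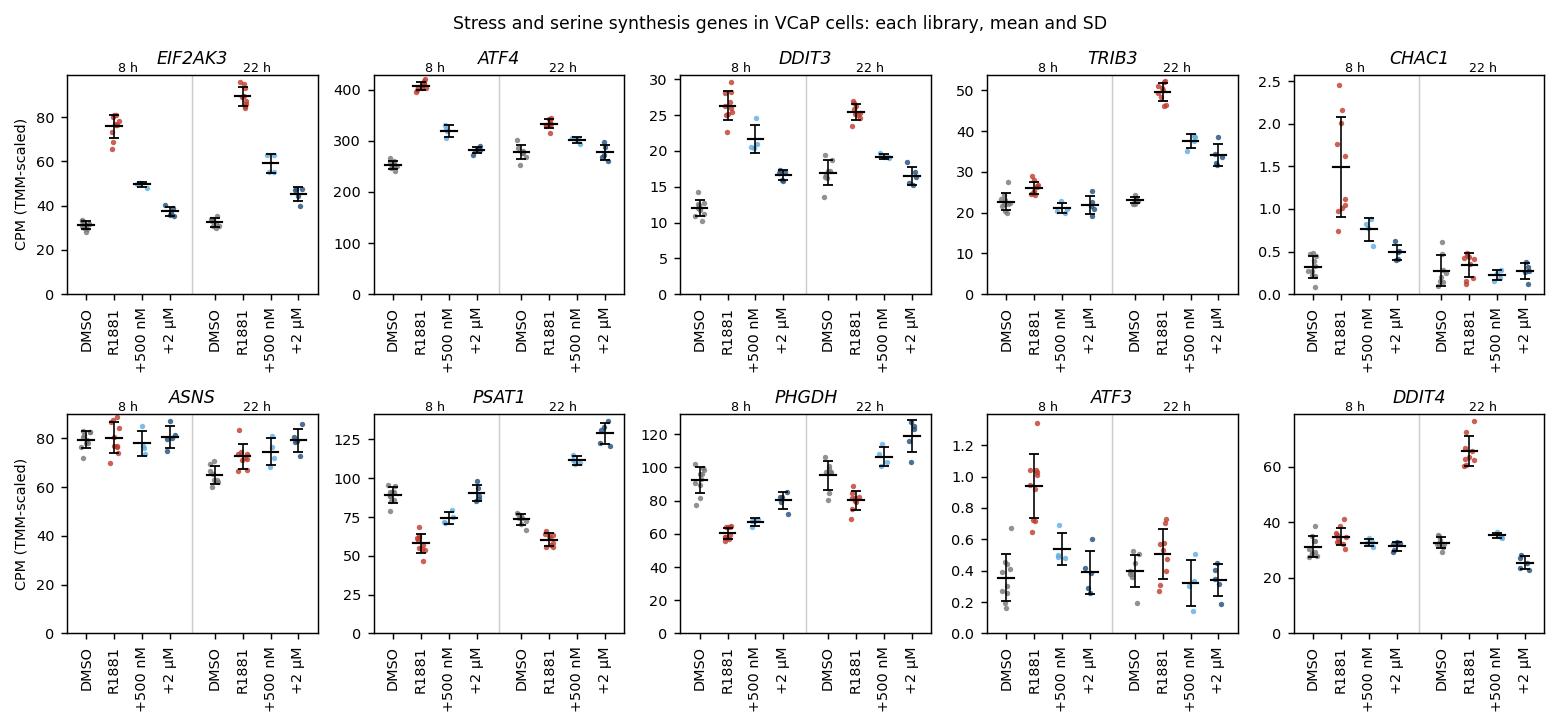
Level of each gene in every VCaP library (CPM after TMM scaling, linear axis from 0) with DMSO, R1881 and R1881 plus 500 nM or 2 µM darolutamide at 8 h (left of each panel) and 22 h (right). Points are libraries, horizontal bars means and error bars SD (n = 4 to 10). PSAT1 and PHGDH run opposite to EIF2AK3, ATF4 and DDIT3, and CHAC1 and ATF3 stay below 3 CPM.

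After 22 h of R1881 in VCaP cells, 6 genes were higher (EIF2AK3, ATF4, DDIT3, TRIB3, ASNS and DDIT4) and PSAT1 and PHGDH were lower, while CHAC1 and ATF3 were not called. Of all genes tested, 37.4% were called higher, 40% lower and 77.4% in either direction, so the count of 8 of 10 was close to the background. TRIB3 rose from 22 to 24.3 CPM (median 23) with DMSO to 46.2 to 52.2 CPM (median 50) with R1881, and DDIT4 from 29.4 to 35.4 CPM (median 32.2) to 60.4 to 76.4 CPM (median 63.4). Both pairs of ranges were apart, with a 2.15-fold change for TRIB3 (log2 fold change 1.10, SE 0.0477) and a 2.01-fold change for DDIT4 (log2 fold change 1.01, SE 0.057). EIF2AK3 remained 2.75-fold higher, at 84 to 95.9 CPM against 30 to 35.5. ATF4 was 1.2-fold and DDIT3 1.51-fold higher, and PSAT1 and PHGDH were 1.22-fold and 1.18-fold lower. The ASNS rise of 1.11-fold was not called with control replicates 6 and above (log2 fold change 0.10, adjusted p = 0.237 by edgeR) or with total counts alone (0.04, adjusted p = 0.319 by edgeR).

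The size of the R1881 change differed between 22 and 8 h for all 10 genes, with 60.4% of all genes called for this difference. The change moved upward, in log2 units, by 0.90 for TRIB3, 0.85 for DDIT4, 0.37 for PHGDH, 0.33 for PSAT1, 0.18 for EIF2AK3 and 0.14 for ASNS. It moved downward for CHAC1 (-1.83), ATF3 (-1.04), DDIT3 (-0.54) and ATF4 (-0.43). With control replicates 6 and above, 6 of the 10 were called and EIF2AK3, CHAC1, ASNS and ATF3 were not. In DMSO alone, ATF4 and DDIT3 were higher at 22 than at 8 h (log2 fold changes 0.14 and 0.50) and ASNS and PSAT1 were lower (-0.29 and -0.28), where 29.8% of all genes were called.

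**Figure D2:**
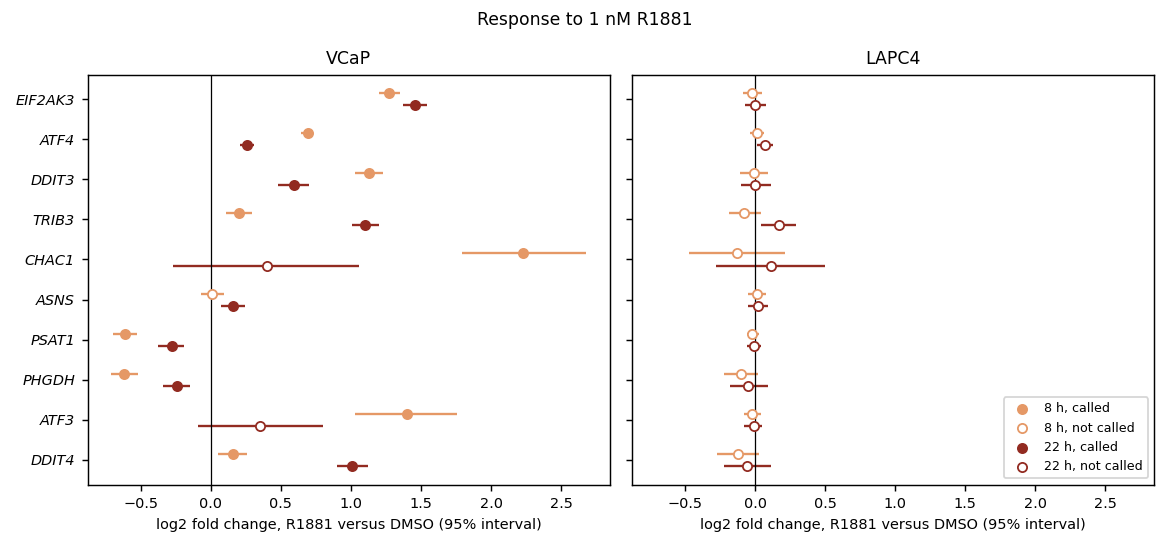
Log2 fold change of each gene with R1881 against DMSO (horizontal axis, 95% interval as bars) in VCaP and LAPC4 cells at 8 h (light) and 22 h (dark). Filled circles are called genes. In VCaP cells CHAC1 reached 2.23 at 8 h and EIF2AK3 1.46 at 22 h, and in LAPC4 cells all circles are open.

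Darolutamide with R1881 was then compared with R1881 alone, to ask how far the antagonist moved each gene back towards DMSO. With 500 nM for 8 h, EIF2AK3, ATF4, DDIT3, TRIB3, CHAC1 and ATF3 were lower and PSAT1 was higher (7 of 10, against 30.6% of all genes). With 2 µM for 8 h, EIF2AK3, ATF4, DDIT3, TRIB3, CHAC1 and ATF3 were lower and PSAT1 and PHGDH were higher (8 of 10, against 52.1%). At 22 h the low dose lowered EIF2AK3, ATF4, DDIT3, TRIB3 and DDIT4 and raised PSAT1 and PHGDH (7 of 10, against 53%). The high dose at 22 h also lowered ATF3 and raised ASNS (9 of 10, against 66.9%). The ATF3 call at 22 h was lost without high-dose replicate 2, 4 or 5 (adjusted p = 0.0858, 0.0673 and 0.164 by edgeR) and the ASNS call without high-dose replicate 5 (adjusted p = 0.0848 by edgeR).

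At 8 h, EIF2AK3 had 50, 47.8, 50.4 and 50.3 CPM in the low-dose and 35.5, 36.8, 35.6, 39 and 40.1 CPM in the high-dose libraries. These values formed separate steps between the R1881 and the DMSO libraries. On a scale where the R1881 mean is 0% and the DMSO mean 100%, calculated on log2 CPM, EIF2AK3 was returned by 47.7% ± 2.81 (SD, n = 4) with 500 nM and by 79.9% ± 6.25 (SD, n = 5) with 2 µM. On unlogged CPM these were 58.8% and 86.4%. ATF4 had 319, 331, 323 and 305 CPM with the low dose and 283, 273, 280, 285 and 290 with the high dose, a return of 51.1% ± 7.32 (SD, n = 4) and 76.9% ± 4.61 (SD, n = 5). Here too both doses stood apart from R1881 and from each other. DDIT3 was returned by 25% ± 11.4 (SD, n = 4) and 58.2% ± 5.43 (SD, n = 5), and PSAT1 by 57.7% ± 11.6 (SD, n = 4) and 103% ± 13.7 (SD, n = 5). PHGDH reached 25.4% ± 7.97 (SD, n = 4) and 66.8% ± 15.2 (SD, n = 5). CHAC1 reached 42.5% ± 13.1 and 70.9% ± 11.1, and ATF3 55.9% ± 17.2 and 89.6% ± 31.4. DDIT4 reached 54.1% ± 34.7 and 89.8% ± 47.6. TRIB3 did not step up with dose, at 151% ± 39.8 with 500 nM and 125% ± 69.7 with 2 µM. Each SD of a return covers the darolutamide libraries alone, with the DMSO and R1881 means taken as fixed.

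CHAC1 fell 3.04-fold with 2 µM at 8 h (log2 fold change -1.60, SE 0.263, adjusted p = 6.01e-07 by edgeR), with 8 to 13 reads per library. ATF3 fell 2.37-fold (log2 fold change -1.24, SE 0.228, adjusted p = 5.33e-06 by edgeR), with 5 to 12 reads. With 500 nM both genes were also called lower (log2 fold changes -0.96 and -0.80). When libraries that stood apart from their group in any of the 10 genes were left out, 1 low-dose library remained at 8 h, which the fit assumes to vary like the other groups. The log2 fold changes were then -0.76 for CHAC1 and -0.93 for ATF3, and a lone library cannot show whether they exceed the spread of its group.

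PSAT1 passed its DMSO level with darolutamide at 22 h. Its values were 66.7 to 77.8 CPM (median 74.5) with DMSO and 55.4 to 66.1 CPM (median 61.2) with R1881, but 109, 115, 112 and 110 CPM with 500 nM and 123, 131, 121, 137 and 133 CPM with 2 µM darolutamide. Every darolutamide library was above every DMSO library. PSAT1 was 2.13-fold higher with 2 µM than with R1881 (log2 fold change 1.09, SE 0.0514, adjusted p = 2.87e-26 by edgeR) and 1.75-fold higher than with DMSO (log2 fold change 0.81, SE 0.0527, adjusted p = 1.05e-19 by edgeR). PHGDH had 80.2 to 106 CPM (median 97.2) with DMSO and 69.2 to 89 CPM (median 81.3) with R1881. It had 108, 101, 103 and 114 CPM with 500 nM and 127, 116, 125, 123 and 103 CPM with 2 µM, so that 1 high-dose library lay within the DMSO range. PHGDH was 1.25-fold higher with 2 µM than with DMSO (log2 fold change 0.32, SE 0.0578, adjusted p = 3.03e-06 by edgeR). ASNS also stood above DMSO, at 72.6 to 85.7 CPM against 60 to 70.9 (1.22-fold, adjusted p = 3.61e-06 by edgeR).

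DDIT4 moved past DMSO in the other direction. After 22 h it had 36.7, 34.4, 34.8 and 35.2 CPM with 500 nM and 27.3, 25.5, 28.3, 23.6 and 22.7 CPM with 2 µM darolutamide, and all 5 high-dose libraries were below the DMSO range of 29.4 to 35.4. It was 2.58-fold lower than with R1881 (log2 fold change -1.37, SE 0.068) and 1.28-fold lower than with DMSO (log2 fold change -0.36, SE 0.0683, adjusted p = 1.06e-05 by edgeR). TRIB3 had 38.8, 37.6, 38.5 and 35 CPM with the low dose and 34.3, 33.7, 38.5, 32.1 and 31.6 CPM with the high dose at 22 h. It remained above every DMSO library, with a return of 49.5% ± 10.2 (SD, n = 5) at 2 µM. EIF2AK3 was returned by 67.2% ± 7.52 (SD, n = 5) at 2 µM, or 77.4% on unlogged CPM, and stayed 1.39-fold above DMSO, whereas ATF4 (log2 fold change -0.00, 95% interval -0.06 to 0.06) and DDIT3 (-0.04, -0.16 to 0.09) were not called against DMSO.

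Against DMSO, 2 µM darolutamide with R1881 thus left 6 of 10 genes called at 22 h (59% of all genes) and 4 of 10 at 8 h (27.5% of all genes). The 4 at 8 h were EIF2AK3, ATF4 and DDIT3, which were higher, and PHGDH, which was lower. The PHGDH call at 8 h was lost with control replicates 1 to 5 (log2 fold change -0.16, adjusted p = 0.0767 by edgeR). This comparison shares the DMSO libraries with that of R1881 against DMSO, as the comparisons of both doses with R1881 share the R1881 libraries.

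Direct comparison of the 2 doses called 5 of 10 genes at 8 h, where 17.6% of all genes were called. EIF2AK3, ATF4 and DDIT3 were lower and PSAT1 and PHGDH higher with 2 µM than with 500 nM. When the same outlying libraries were left out, and with them all but 1 low-dose library, 2 of 10 were called. The log2 difference was then -0.11 for ATF4 (before -0.18), -0.31 for DDIT3 (before -0.38) and 0.24 for PHGDH (before 0.26), with adjusted p = 0.306, 0.131 and 0.209 by edgeR from a lone low-dose library. At 22 h, EIF2AK3, ATF4, DDIT3 and DDIT4 were lower and PSAT1 was higher with the high dose, 5 of 10 genes against 20.2% of all genes. Without a filter on low counts 3 were called, and ATF4 and DDIT3 were not (adjusted p = 0.055 and 0.0791 by edgeR). The DDIT3 call was lost without low-dose replicate 2 or high-dose replicate 2 or 5 (adjusted p = 0.0672, 0.0828 and 0.0574 by edgeR), and the PSAT1 call without low-dose replicate 1 or 4 (adjusted p = 0.114 and 0.101 by edgeR). TRIB3 was called lower without low-dose replicate 4 or high-dose replicate 3 (adjusted p = 0.0366 and 0.0105 by edgeR), and PHGDH higher without high-dose replicate 5 (adjusted p = 0.0235 by edgeR).

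**Figure D3:**
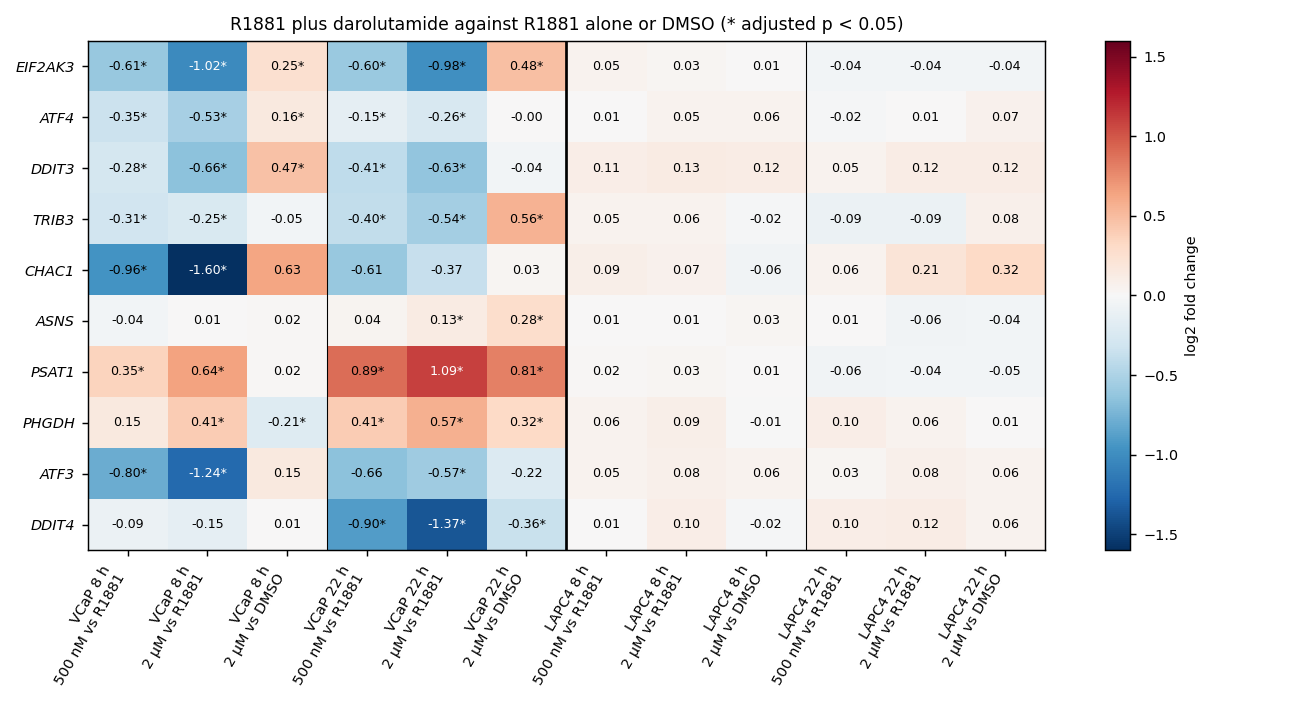
Log2 fold changes of R1881 plus darolutamide against R1881 alone or against DMSO (columns) for each gene (rows), red for higher and blue for lower, with an asterisk for called genes. The VCaP columns on the left run from -1.60 (CHAC1, 2 µM against R1881 at 8 h) to 1.09 (PSAT1, 2 µM against R1881 at 22 h), and no LAPC4 cell on the right carries an asterisk.

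The neighbouring genes of the pathway were counted in lists written from general knowledge. With R1881 in VCaP cells, the background at 8 h was 32.8% of all genes higher and 34.1% lower, and at 22 h it was 37.4% higher and 40% lower. Of 17 genes of the eIF2 machinery (the other eIF2 kinases, eIF2 and eIF2B subunits, the eIF2 phosphatase and DNAJC3), 9 were higher and 6 lower with R1881 for 8 h in VCaP cells, and 15 were higher and 2 lower at 22 h. The median log2 fold changes were 0.22 and 0.36. PPP1CB, a catalytic subunit of protein phosphatase 1, was 4.18-fold higher at 8 h, and DNAJC3, a chaperone known to inhibit PERK, was 5.75-fold higher at 22 h. PPP1R15B, the constitutive targeting subunit of the eIF2 phosphatase, was 1.93-fold higher at 8 h and 2.08-fold at 22 h. PPP1R15A (GADD34), the stress-induced targeting subunit, was higher at both times (log2 fold changes 0.38 and 0.81). EIF2S1, the subunit that PERK phosphorylates, had a log2 fold change of 0.04 (adjusted p = 0.335 by edgeR) at 8 h and was higher at 22 h (0.28, adjusted p = 2.25e-09 by edgeR). With 2 µM darolutamide against R1881 at 22 h, 10 of the 17 were lower and 3 higher, where 66.9% of all genes were called in either direction.

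Other reported targets of ATF4 and CHOP did not move one way. Of 27 tested genes, 15 were higher and 7 lower with R1881 at 8 h and 13 higher and 9 lower at 22 h in VCaP cells, with medians of 0.16 and 0.25. The 22 of 27 called at 22 h were near the background of 77.4%. TNFRSF10B, the death receptor DR5, was 2.92-fold higher at 8 h and the transcription factor ATF5 4.46-fold higher at 22 h. STC2, a secreted glycoprotein, was 2.85-fold lower at 8 h and 2.55-fold lower at 22 h. TXNIP, an inhibitor of thioredoxin, was 2.38-fold lower at 8 h, and KLHL24 was 3.19-fold lower at 22 h. With 2 µM darolutamide against R1881 at 22 h, ATF5 was 3.56-fold lower, ADM2 3.36-fold lower and STC2 2.84-fold higher. The list then had 12 higher and 11 lower genes, where 66.9% of all genes were called in either direction.

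Serine, glycine, folate and proline enzymes other than PSAT1 and PHGDH were also mixed. Of 17 tested genes, 4 were higher and 7 lower with R1881 at 8 h, and 9 were higher and 7 lower at 22 h in VCaP cells. The 11 of 17 called at 8 h were near the background of 66.9%. PSPH, which catalyses the last step of serine synthesis, was lower at 8 h (log2 fold change -0.18, adjusted p = 8.32e-06 by edgeR) and higher at 22 h (0.16, adjusted p = 0.000152 by edgeR). At 8 h the mitochondrial folate enzyme MTHFD1L was 1.49-fold higher, the cytosolic MTHFD1 1.48-fold lower and the proline synthesis enzyme ALDH18A1 1.18-fold lower. At 22 h MTHFD1L was 1.39-fold and DLD, a subunit of the glycine cleavage system, 1.38-fold higher. With 2 µM darolutamide at 22 h, 9 were higher and 2 lower than with R1881, again near the background of 66.9%, and 14 were higher and 2 lower than with DMSO, where 59% of all genes were called. TYMS, which makes thymidylate and is known as a gene of DNA synthesis, was 2.86-fold higher and MTHFD1 2.06-fold higher than with R1881. TYMS was also 2.62-fold higher than with DMSO. PSPH was not called against R1881 (log2 fold change -0.01) and was slightly higher than with DMSO (0.15, adjusted p = 0.00217 by edgeR).

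The other arms of the unfolded protein response moved largely one way in VCaP cells. Of 20 genes of the ATF6 and IRE1 arms, 18 were higher and 2 lower with R1881 at 8 h (median log2 fold change 1.06). At 22 h, 18 were higher and 1 lower (median 1.75). Of all genes, 32.8% were called higher and 34.1% lower at 8 h, and 37.4% higher and 40% lower at 22 h. ERN1, which encodes the sensor kinase IRE1, was 7.63-fold higher at 8 h and 4.29-fold at 22 h, and HSPA5, the chaperone BiP, 2.58-fold and 3.36-fold. With 2 µM darolutamide, 18 genes of the list were lower and 0 higher than with R1881 at 8 h, and likewise at 22 h. Of all genes, 52.1% were called in either direction at 8 h and 66.9% at 22 h. These shares hold both directions, so the shares called lower alone are smaller. At 22 h 16 genes of the list were higher and 1 lower than with DMSO, where 59% of all genes were called in either direction. The lists were drawn up with earlier results of these data known, so their directions are no independent evidence.

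**Figure D4:**
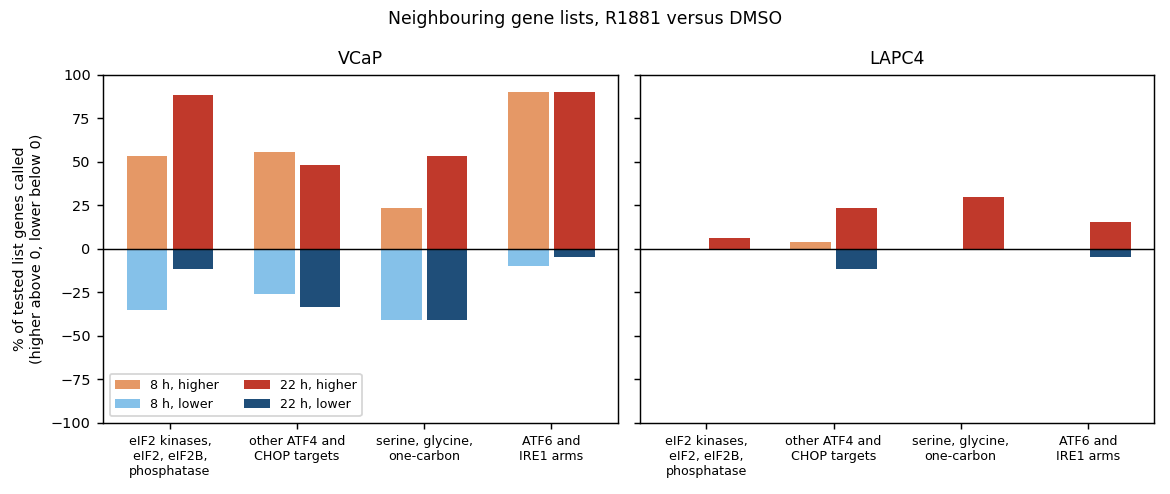
Share of the tested genes of each list that were called higher (above 0) or lower (below 0) with R1881 against DMSO, at 8 h (light) and 22 h (dark), in VCaP and LAPC4 cells. In VCaP cells the ATF6 and IRE1 list had 18 of 20 genes higher at 8 h and 18 of 20 at 22 h. The eIF2 list had 15 of 17 higher at 22 h, a similar share. The LAPC4 bars are short.

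Over all 55 VCaP libraries, the gene whose log2 CPM was most like that of ATF4 was its pseudogene ATF4P3 (Pearson's r = 0.983), followed by SIM2 (0.965) and EEF2K (0.961), which encodes a kinase of translation elongation factor 2. Whether ATF4P3 and ATF4 count the same transcripts was not tested, and the treatment of multiply mapped reads is not given. The genes most like PSAT1 were UNG (0.953), RRP1B (0.942) and ELAVL2 (0.927). Within the 10 genes, ATF4 and DDIT3 had r = 0.897, EIF2AK3 and DDIT3 0.885, PSAT1 and PHGDH 0.721, and ATF4 and PHGDH -0.73. These values describe libraries that share treatments and times, and the libraries are not independent points.

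In LAPC4 cells the log2 fold changes with R1881 lay between -0.13 and 0.01 at 8 h and between -0.06 and 0.17 at 22 h, and the ranges of the groups compared overlapped for all 10 genes. With R1881 for 8 h, 0 of 10 genes were called by edgeR and 0 by DESeq2, and 0 had an unadjusted p under 0.05, where 2.64% of 18204 genes were called. At 22 h, 0 were called by either tool and 2 had an unadjusted p under 0.05 (ATF4 and TRIB3), where 13.3% of all genes were called. The 95% intervals of the 22 h log2 fold change were -0.07 to 0.08 for EIF2AK3, 0.01 to 0.13 for ATF4, -0.10 to 0.11 for DDIT3, -0.06 to 0.04 for PSAT1 and -0.18 to 0.09 for PHGDH. TRIB3 lay at 43 to 54.5 CPM (median 45.7) with DMSO and at 49.2 to 61.3 CPM (median 51.5) with R1881 at 22 h, and its log2 fold change was 0.17 (adjusted p = 0.0759 by edgeR). Control libraries of LAPC4 cells differed by replicate number for ATF4, which lay at 469 to 502 CPM in replicates 1 to 5 and at 524 to 555 CPM in replicates 6 to 10 with DMSO for 8 h. With R1881 for 8 h the same sets held 485 to 518 and 511 to 545 CPM, and overlapped. The labels do not say what the numbers stand for, and their part in the LAPC4 values was not tested beyond the fits on control subsets.

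The darolutamide comparisons of LAPC4 cells called 0 of 10 genes by edgeR and by DESeq2 in each case. The background was 0.626% of all genes for 500 nM against R1881 at 8 h, 1.54% for 2 µM against R1881 at 8 h, 5.89% and 10.5% for the same at 22 h, and 0.0275% and 0.258% between the doses at 8 and 22 h. Against DMSO, 2 µM gave 0.011% at 8 h and 0.0165% at 22 h. Unadjusted p under 0.05 were found for DDIT3 and ATF3 with 2 µM against R1881 at 8 h, for ATF3 at 22 h and for ATF4 with 2 µM against DMSO at 22 h. The R1881 change did not differ between the times for any of the 10 genes by edgeR or DESeq2 (3.21% of all genes called, 1 unadjusted p under 0.05, for TRIB3). Between 22 and 8 h in DMSO, ASNS was the only gene called (log2 fold change -0.24, SE 0.0369, adjusted p = 5.09e-07 by edgeR), against 22.1% of all genes. PSAT1 lay at 112 to 117 CPM and ATF3 at 40.4 to 43.3 CPM in the means of all 8 LAPC4 groups.

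Several LAPC4 levels moved with a property of the libraries. Over the 57 LAPC4 libraries, the slope of log2 CPM on gene GC content had r = 0.869 with PHGDH, 0.853 with DDIT4, 0.837 with TRIB3, 0.696 with CHAC1 and -0.86 with EIF2AK3. In VCaP cells the largest of these was -0.413, for ASNS. These r were taken over all libraries of a line, with differences between treatments left in. Within groups, the main axis of variation over all genes followed the slope in both lines (r = 0.997 in VCaP and 0.996 in LAPC4 cells). With this slope as a covariate, R1881 at 22 h called 3 LAPC4 genes, TRIB3 (log2 fold change 0.12, adjusted p = 0.00307), PHGDH (-0.10, adjusted p = 8.21e-05) and DDIT4 (-0.13, adjusted p = 0.00297 by edgeR). The background of 13.3% of all genes belongs to the fit without the covariate, and the share with it is not given here.

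**Figure D5:**
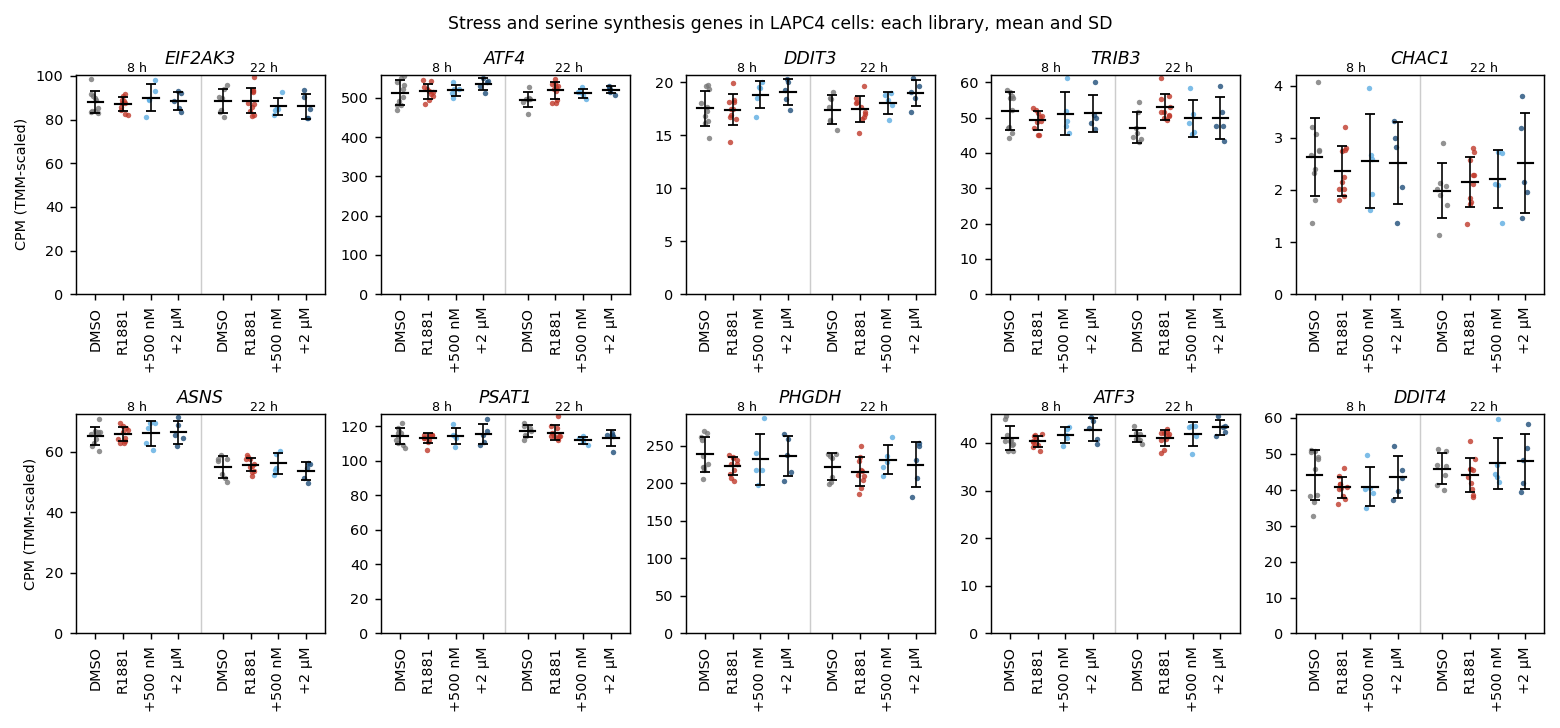
Level of each gene in every LAPC4 library (CPM after TMM scaling, linear axis from 0) by treatment at 8 h (left of each panel) and 22 h (right). Points are libraries, horizontal bars means and error bars SD (n = 5 to 10). Treatment groups of the same time overlap in every panel, and ASNS is lower at 22 h than at 8 h.

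The R1881 change itself was compared between the lines. At 8 h it was higher in VCaP than in LAPC4 cells for EIF2AK3, ATF4, DDIT3, TRIB3, CHAC1 and ATF3 and lower for PSAT1 and PHGDH, 8 of 10 genes against 58.5% of all genes. The differences in log2 fold change were 2.29 for CHAC1, 1.33 for ATF3, 1.21 for EIF2AK3 and 1.06 for DDIT3, and -0.68 and -0.60 for PSAT1 and PHGDH. At 22 h, EIF2AK3 (1.40), DDIT4 (1.01), TRIB3 (0.88), DDIT3 (0.53) and ATF4 (0.14) were higher and PSAT1 (-0.33) and PHGDH (-0.26) lower, 7 of 10 genes against 68.5%. TRIB3 at 8 h was not called with control replicates 6 and above (0.10, adjusted p = 0.41 by edgeR) or with total counts alone (0.12, adjusted p = 0.148 by edgeR). For the neighbouring lists in LAPC4 cells at 22 h of R1881, 1 of 17 eIF2 genes was higher, 6 of 26 ATF4 and CHOP targets were higher and 3 lower, 5 of 17 serine, glycine, folate and proline genes were higher, and 3 of 20 ATF6 and IRE1 genes were higher and 1 lower, where 13.3% of all genes were called. With control replicates 6 and above the called genes of these lists numbered 0, 3, 1 and 0. The share of all genes called in that fit, which has fewer control libraries, is not given here. TNFRSF10B was also higher in LAPC4 cells at 8 and 22 h (log2 fold changes 0.12 and 0.22). MTHFD1 was higher with R1881 in LAPC4 cells at 22 h (0.27), and CEBPD, a C/EBP transcription factor, had a log2 fold change of 0.72.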

How the data were processed

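VCaP and LAPC4 cells were profiled by single-end 50-base sequencing of stranded mRNA libraries. Per the labels and the study's methods, the authors used STAR with the GRCh38 genome for alignment and deposited raw read counts per gene from featureCounts (Subread). Tool versions other than bcl2fastq 2.17, and the treatment of strand and multiply mapped reads, are not given in the sources used here. All 112 count columns were matched to samples by name.

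Genes that reached 10 reads in 4 or more of a line's libraries were tested with edgeR 4.0.16 (R 4.3.3), using TMM factors and 1 quasi-likelihood fit of the 8 groups of a line, or of both lines together for differences between lines (16578 genes). The p-values were adjusted over all tested genes, with a threshold of 0.05. Log2 CPM used a prior count of 2, and 95% intervals are the estimate ± 1.959964 SE. The alternatives were DESeq2 1.42.0, other scaling factors, filters, control subsets, a replicate block, a covariate for the slope of expression on GC content, and leaving out libraries. Leaving out outlying libraries and adding pseudogene reads were chosen after seeing the data. Between 12188455 and 25201678 counts per library set the precision, so CHAC1 and ATF3, with few reads in VCaP cells, are the least precise. Intervals cover the spread between libraries.

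Gene positions came from GENCODE 44 and promoter sequences from RefSeq. Genes outside the 10 were named as the 3 with the smallest adjusted p of each list, plus EIF2S1, PSPH and PPP1R15A. Some genes that this rule names are not reported here. CEBPD in LAPC4 cells falls under the same rule. The genes most like a given gene were the 3 with the highest Pearson's r over the libraries of a line. The members and lists were chosen with earlier results of these data known.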

Additional observations from a re-analysis of the deposited data

Results flagged for a closer look

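Single libraries lay far from the rest of their group in 9 of 160 combinations of gene and group, where chance gives about 1 in 20. In VCaP cells with 500 nM darolutamide for 8 h, these were replicate 2 for EIF2AK3 (lowest, 47.8 CPM), replicate 3 for DDIT3 (highest, 24.6 CPM) and replicate 1 for ATF3 (highest, 0.689 CPM). In VCaP cells at 22 h they were R1881 replicate 4 for ATF4 (lowest, 315 CPM), R1881 replicate 3 for ASNS (highest, 83.3 CPM), 500 nM replicate 2 for ATF4 (lowest, 293 CPM) and DMSO replicate 1 for ATF3 (lowest, 0.192 CPM). In LAPC4 cells they were 2 libraries for PSAT1, R1881 replicate 5 at 8 h (lowest, 106 CPM) and 2 µM replicate 5 at 22 h (lowest, 105 CPM).

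The log2 effect of R1881 in VCaP cells at 22 h minus that at 8 h differed from 0 for all 10 genes: 0.18 for EIF2AK3, -0.43 for ATF4, -0.54 for DDIT3, 0.90 for TRIB3, -1.83 for CHAC1, 0.14 for ASNS, 0.33 for PSAT1, 0.37 for PHGDH, -1.04 for ATF3 and 0.85 for DDIT4. The effect in VCaP minus that in LAPC4 cells at 8 h was 1.21 for EIF2AK3, 0.59 for ATF4, 1.06 for DDIT3, 0.19 for TRIB3, 2.29 for CHAC1, -0.68 for PSAT1, -0.60 for PHGDH and 1.33 for ATF3. At 22 h it was 1.40 for EIF2AK3, 0.14 for ATF4, 0.53 for DDIT3, 0.88 for TRIB3, -0.33 for PSAT1, -0.26 for PHGDH and 1.01 for DDIT4. These differences were tested as interaction terms in edgeR. Of all genes tested, 60.4% were called for the time difference, 58.5% for the line difference at 8 h and 68.5% for that at 22 h. With the higher-numbered control replicates alone, the time differences of EIF2AK3, CHAC1, ASNS and ATF3 were not called.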

How the results depend on the processing

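Leaving out each darolutamide library in turn kept the number of the 10 genes called in each comparison within 1.5 times. Scaling by total counts alone turned ASNS with R1881 at 8 h in VCaP cells (-0.13) and the DDIT3 difference between the lines in DMSO (-0.01). In VCaP cells the number of genes called fell from 7 to 4 for 500 nM against R1881 at 8 h with a replicate block (not called: DDIT3 -0.33, CHAC1 -0.93 and ATF3 -0.87, adjusted p = 0.0511, 0.146 and 0.092 by edgeR), from 5 to 2 between the doses at 8 h without outlying libraries, from 5 to 3 between the doses at 22 h with no filter, and from 10 to 6 for the time difference with control replicates 6 and above. In LAPC4 cells, where 0 genes were called by edgeR and DESeq2 except 1 in DMSO at 22 against 8 h, the GC covariate called 1 for 2 µM against R1881 at 8 h, 3 for R1881 at 22 h, 1 for 500 nM and 2 for 2 µM against R1881 at 22 h, 3 for DMSO over time and 1 for the time difference. The GC covariate with the replicate block called 1, 2, 1, 4, 3 and 1 in these comparisons, and 1 for 2 µM against DMSO at each time. The replicate block alone called 1 for R1881 and 1 for 2 µM against R1881 at 22 h, the compared groups alone 1 for R1881 at 22 h, and control replicates 1 to 5 called 1 for 2 µM against DMSO at 8 h. The number of called genes of a neighbouring list moved by over 1.5 times in 29 combinations of list and comparison with the GC covariate (79 did not), in 15 with the replicate block (89 did not), in 32 with both, in 13 with the lower-numbered and 17 with the higher-numbered control replicates, and in 19 combinations when a library was left out (365 did not). In LAPC4 cells with R1881 at 22 h the GC covariate called 7 eIF2 genes, 14 ATF4 and CHOP targets and 9 serine list genes. The share of all genes called with the covariate is not given here, so its counts, also those of the 10 genes, have no background. Of the returns towards DMSO, 12 moved by more than 1 SD on unlogged CPM (22 did not), 4 when the lower-numbered and 5 when the higher-numbered control libraries alone were used, such as DDIT3 with 2 µM at 8 h (67.7%, 65.3% and 51.7%). The cause of these shifts was not tested. Replicate numbers did not pair the libraries: the mean r of deviations of same-numbered libraries was -0.00511 over 149 VCaP pairs and 0.0549 over 161 LAPC4 pairs, and 6 of 55 and 10 of 57 libraries were nearest to their own number. For the DMSO level between the lines alone, no replicate block was fitted, because the lines share no samples. Over all genes, total-count scaling moved the calls for 2 µM against R1881 at 8 h from 4998 higher and 5040 lower to 7169 and 3517. Depth limits CHAC1 and ATF3 in VCaP cells most.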
